A study of Mus musculus with 2 samples.

Results

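The 2 insulin genes of the mouse and 8 genes for the maturation of prohormones were followed in sorted pancreatic beta cells of mutant mice. The 10 members were chosen by gene symbol, and all 10 were found among the 55487 genes of the deposited tables. They are Ins1 and Ins2; the convertase genes Pcsk1, Pcsk2 and Furin; Scg5 and Pcsk1n, whose products bind convertases; the carboxypeptidase gene Cpe; the amidating enzyme gene Pam; and the endoplasmic reticulum oxidase gene Ero1b. Both libraries of the series come from the same group, mutant beta cells of mice aged 2 months, with the genotype MytF/F, Myt2F/F and Myt3F/F with RipCre. In the files the targeted genes stand as Myt1, Myt1l and St18. RipCre is a Cre recombinase driven by the rat insulin promoter, so recombination depends on the activity of that promoter in each cell. The cells came from islets dissociated with trypsin and were sorted by flow cytometry, and males and females were pooled. Library 2 is named a duplicate, with no word on whether separate mice were used. The spread between the libraries may therefore be technical. No control cells were analysed here, and every value below describes mutant cells alone.

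Insulin is made as a single chain that enters the endoplasmic reticulum, loses its signal peptide and folds around disulfide bonds. In the trans-Golgi network and the secretory granule, convertases cut the proinsulin chain after pairs of basic residues on either side of the C-peptide, and the exposed basic residues are then trimmed by a carboxypeptidase. The same enzymes mature other granule peptides, some of which, such as amylin, are also amidated at their C-terminus. Mice have a pair of insulin genes. Ins1 arose from the ancestral gene by retroposition and lacks an intron that Ins2 kept.

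The stretches of the coding sequence around the C-peptide are shown because they hold the sites at which the convertases described here act, and because they show how alike the insulin genes are. Each stretch runs from 8 codons before the first pair of basic codons to 8 codons after the last, read 5′ to 3′ from the GENCODE M21 transcripts Ins1-201 and Ins2-201. Capitals mark the paired codons for basic residues.
Ins1: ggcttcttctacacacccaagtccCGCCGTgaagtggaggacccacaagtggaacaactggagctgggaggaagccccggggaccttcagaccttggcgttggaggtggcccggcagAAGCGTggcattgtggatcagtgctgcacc
Ins2: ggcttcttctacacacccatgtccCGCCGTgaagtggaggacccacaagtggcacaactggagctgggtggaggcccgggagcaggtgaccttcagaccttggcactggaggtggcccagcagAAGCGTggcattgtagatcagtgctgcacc
Both coding sequences held 2 such pairs, with the same bases at each pair. Between the pairs lay 29 codons in Ins1 and 31 codons in Ins2. The Ins1 stretch lies within 1 exon at chr19:52264762-52264908 on the plus strand of GRCm38. The Ins2 stretch is interrupted by an intron after its base 49 and spans chr7:142678755-142679395 on the minus strand. Over 327 aligned bases the coding sequences were 92.4% identical. Their longest identical run was 56 bases, and the transcripts of these genes shared 7 distinct words of 50 bases, which is 0.691% of the words of Ins1 and 0.465% of those of Ins2. A read of 50 bases that matches a transcript of 1 insulin gene without error thus matches the other gene at these words only. How the authors treated reads that match several places is not stated in the labels.

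The insulin genes were the most abundant transcripts of the cells. Ins2 stood at 230177 TPM in library 2 and 217983 TPM in library 1, a mean of 224080.1 ± 8622 TPM (SD, n = 2). Ins1 stood at 136710.0 TPM in library 2 and 149022 TPM in library 1, a mean of 142866 ± 8706 TPM. TPM divides the count by a gene length, so it is the scale on which levels of different genes are set side by side. Ins2 was above Ins1 in both libraries, and their ranges did not overlap. By mean TPM the next gene was Iapp, which encodes amylin, at 38292 TPM in library 2 and 36975 TPM in library 1. Chgb, Chga, mt-Co1, mt-Cytb, Scg2, mt-Nd1 and Sst made up the rest of the first 10. Together the insulin genes held 36.69% of the summed TPM in library 2 and 36.70% in library 1.

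In reads, the insulin genes took 16.42% of the counted reads of library 2 (exact 95% Clopper-Pearson interval 16.41% to 16.43%) and 16.13% of those of library 1 (16.12% to 16.14%), a mean of 16.3% ± 0.210 (SD, n = 2). Here and below, intervals allow for counting error alone, meaning that of reads taken as independent. Reads counted without molecular identifiers can be copies of 1 molecule, so the intervals can be too narrow. The sum moved less than its parts. Ins2 gave 67.5% of the insulin reads in library 2 and 64.4% in library 1. Scaled by length, its part of the insulin TPM was 62.7% in library 2 and 59.4% in library 1. Ins2 over Ins1 was thus 1.68-fold in TPM in library 2 (95% interval 1.681 to 1.686) and 1.46-fold in library 1 (1.461 to 1.465). This ratio was 1.15 times as high in library 2 as in library 1 (1.149 to 1.154), a shift beyond counting error that no scaling between the libraries can alter. Its size depends on the gene length used, which the intervals do not cover. Ins2 has merged exons of 1312 bases and a longest coding transcript of 918, while both have 1062 bases for Ins1. The transcript Ins2-201, whose coding stretch is shown above, has only 478 bases. That length was not used for scaling, and a shorter length for Ins2 raises Ins2 over Ins1. In the geometric mean, Ins2 over Ins1 was 1.57-fold with the deposited TPM and 2.24-fold with the longest coding transcript. In reads without length scaling it was 1.94-fold.

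**Figure D1:**
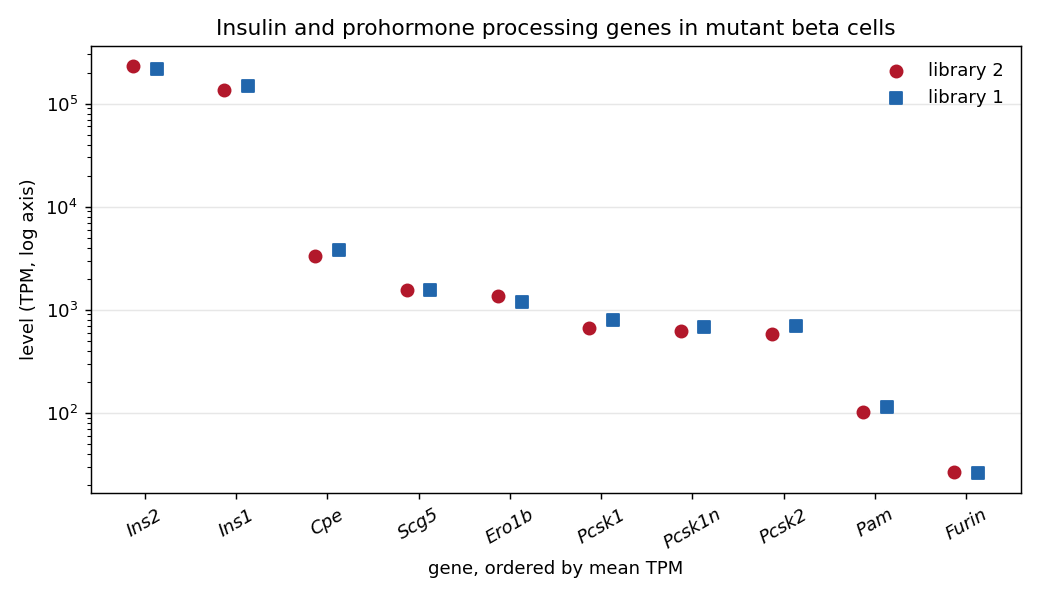
Levels of the 10 genes in library 2 (red circles) and library 1 (blue squares), in TPM on a log axis, ordered by mean TPM from left to right. Ins2 and Ins1 stand near the top, Cpe follows at 3586 TPM in the mean, and Furin is lowest at 26.6 TPM.

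The stretch ahead of the annotated start of Ins1 is shown because Ins1 gave the second most abundant transcript. It is from the mouse gene, and the rat insulin promoter that drives the Cre is not shown. Distances below count from that annotated start, chr19:52264297. Where Ins1 RNA begins in these cells was not tested, so the window may miss bases nearest the start in use. Of the 10 members, 8 had an entry in the RefSeq promoter table (GRCm38.p6). Ins2 and Cpe had none. The 250 bases ahead of the annotated Ins1 start, at chr19:52264047-52264296 on the plus strand, read as follows, with capitals at the letters TAAT on either strand.
Ins1 promoter: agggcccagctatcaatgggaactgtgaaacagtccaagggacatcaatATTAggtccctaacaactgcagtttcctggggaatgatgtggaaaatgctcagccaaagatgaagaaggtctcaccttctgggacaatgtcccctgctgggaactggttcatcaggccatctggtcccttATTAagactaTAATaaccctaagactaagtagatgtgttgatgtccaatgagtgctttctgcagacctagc
TAAT is the core bound by many homeodomain factors, and it occurred 3 times, beginning 201, 71 and 61 bases ahead of the start. The last of these overlaps a match to TATAA that begins 63 bases ahead. CANNTG, the E box of basic helix-loop-helix factors, occurred 2 times, 188 and 84 bases ahead. AAGTT, the core of the sites bound by Myt zinc fingers, occurred 0 times on either strand. Of 32817 promoters of the same length, 54.9% held TAAT, 66.2% held CANNTG, 22.8% held TATAA and 35.3% held AAGTT. Of the promoters listed for the 8 members, 0 held AAGTT. These are matches of letters and say nothing about binding.

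The convertase pair of the granule was expressed at similar levels. Pcsk1 encodes the convertase known mainly for the cut between the B chain and the C-peptide. Its locus is chr13:75089826-75134861 on the plus strand of GRCm38, the build of all loci given here. It stood at 664 TPM in library 2 and 787 TPM in library 1, a mean of 726 ± 87.0 TPM (SD, n = 2). Pcsk2 encodes the convertase known mainly for the cut between the C-peptide and the A chain, at chr2:143546156-143816285 on the plus strand. It stood at 588 TPM in library 2 and 695 TPM in library 1, a mean of 642 ± 75.8 TPM. Their ranges over the libraries overlapped, although within each library Pcsk1 was 1.13-fold above Pcsk2.

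The order of this pair rests on the gene lengths behind TPM. Pcsk2 has merged exons of 7910 bases, while its only coding transcript has 4723 bases. For Pcsk1 the merged exons have 5604 bases and the longest of 2 coding transcripts has 5040. Scaled by the longest coding transcript, Pcsk1 over Pcsk2 became 0.751-fold, and in reads without length scaling it was 0.801-fold. Between the libraries the ratio differed by no more than counting error. Its change, library 2 over library 1, was 0.997 (95% interval 0.983 to 1.01). Pcsk2 also shares 260 exonic bases with its antisense gene Pcsk2os1 and 99 with Pcsk2os2. The library kit named in the labels does not mark strand, so reads there cannot be told apart. Pcsk2os1 itself was counted at 1.44% of the reads of Pcsk2 in library 2 and 1.52% in library 1. Other members overlap other genes too: Pam shares 188 exonic bases with B230216N24Rik, Pcsk1n 135 with Eras and Furin 118 with Gm44851.

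Furin, a convertase of the trans-Golgi network found in most cell types, was the lowest of the members. It stood at 26.9 TPM in library 2 and 26.3 TPM in library 1, a mean of 26.6 ± 0.368 TPM (SD, n = 2), on 3531 reads in library 2 and 4398 in library 1. Pcsk1 exceeded Furin 24.7-fold in library 2, against 29.9-fold in library 1. For Pcsk2 over Furin the folds were 21.9 in library 2, against 26.4 in library 1. With the longest coding transcript as the length, Pcsk1 over Furin was 14.3-fold in the geometric mean, against 27.2-fold with the deposited TPM. Its locus is chr7:80388585-80405436 on the minus strand.

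Among the other proprotein convertases, 5 of 6 reached 1 CPM (counts scaled to the library total) in each library and are called detected. Of all 55487 genes, 13834 reached this limit in library 2 and 13995 in library 1. The median of the 6 other convertases was 14.0 TPM. Over the 13955 genes that averaged at least 1 CPM, the median was 14.1 TPM. Pcsk4, known for its expression in germ cells, was highest, at 58.6 TPM in library 2 and 80.9 TPM in library 1. Pcsk7, a widely expressed convertase, had a mean of 14.1 TPM, and Furin exceeded it 2.00-fold in library 2, against 1.80-fold in library 1. That ratio was 2.99-fold with the longest coding transcript. Pcsk5 was under the limit, with 9 reads in library 2 and 7 reads in library 1. Furin and Pcsk7 thus stood far below the granule convertases.

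Of the genes whose products bind the granule convertases, Scg5 lay above its partner and Pcsk1n overlapped its partner. Scg5 encodes a chaperone that Pcsk2 protein needs for its maturation, and whose C-terminal peptide inhibits it. It stood at 1565 TPM in library 2 and 1559 TPM in library 1, a mean of 1562 ± 3.67 TPM (SD, n = 2), the smallest spread relative to its level among the 10. Scg5 over Pcsk2 was 2.66-fold in library 2, against 2.24-fold in library 1, while in reads without length scaling Scg5 was below Pcsk2, at 0.485-fold. With the longest coding sequence it was 1.46-fold. Pcsk1n encodes an inhibitor of the Pcsk1 convertase. It stood at 618 TPM in library 2 and 685 TPM in library 1, a mean of 652 ± 47.6 TPM. Its range overlapped those of Pcsk1 and of Pcsk2, so the places of these 3 neighbours in the order are not separated by the spread of their levels. Set against each other within a library, Pcsk1n over Pcsk1 was 0.930-fold in library 2, against 0.870-fold in library 1. With the longest coding sequence as the length this ratio turned to 1.03-fold, and in reads it was 0.352-fold. The locus of Scg5 is chr2:113776362-113829121 (minus strand) and that of Pcsk1n chrX:7919822-7924410 (plus strand).

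**Figure D2:**
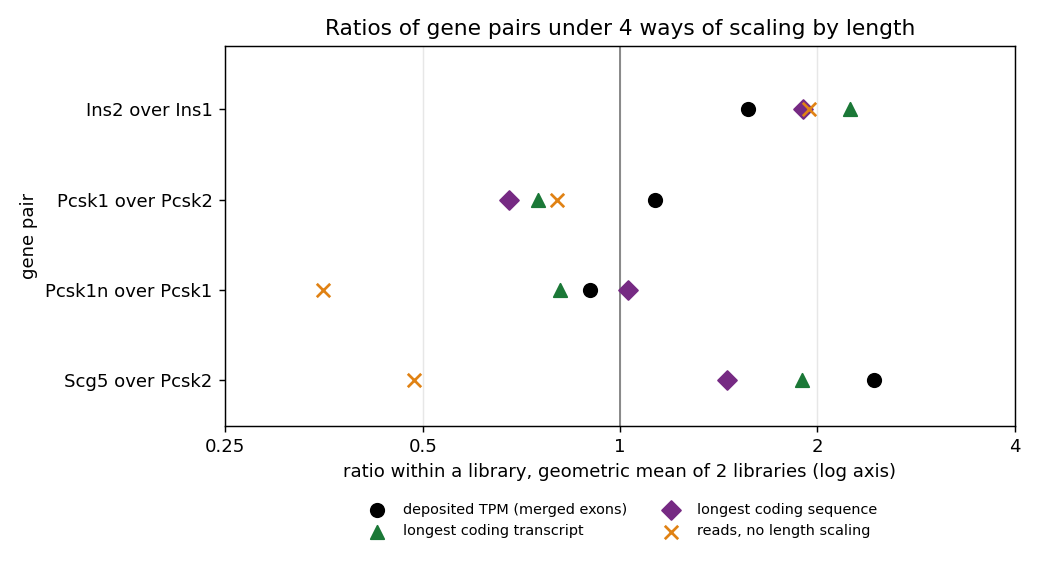
Ratios of 4 gene pairs within a library (geometric mean of 2 libraries, log axis) with the deposited TPM, with the longest coding transcript, with the longest coding sequence, and in reads. Ins2 lies above Ins1 throughout, while Pcsk1 lies above Pcsk2 with the deposited TPM and below it with the other choices.

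Cpe was the most abundant of the 8 processing genes. It encodes the carboxypeptidase that removes basic residues left by the convertases, at chr8:64592542-64693054 on the minus strand. It stood at 3340 TPM in library 2 and 3831 TPM in library 1, a mean of 3586 ± 347 TPM (SD, n = 2), which placed it at rank 15 of all genes. The related Cpd, a carboxypeptidase of the trans-Golgi network, had 80.5 TPM in library 2 and 108 TPM in library 1. Cpe over Cpd was 41.5-fold in library 2, against 35.5-fold in library 1, and 12.0-fold in reads. Of the 7 other carboxypeptidases of this group, 4 were detected, and the median of the 7 was 6.56 TPM. Cpd was the highest of them and Cpm the lowest detected, with a mean of 6.557 ± 1.504 TPM. Cpz had 2 reads in each library, Cpxm1 had 5 in library 2 and 15 in library 1, and Aebp1 had 2.56 CPM in library 2, against 0.579 CPM in library 1.

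Pam, which encodes the enzyme that amidates peptides at a C-terminal glycine, stood below Pcsk1, Pcsk2 and Cpe and above Furin. Insulin is not amidated, and amylin is. Pam stood at 102 TPM in library 2 and 114 TPM in library 1, a mean of 108 ± 7.82 TPM (SD, n = 2), at rank 834 of all genes. Pam over Cpe was 0.0307-fold in library 2, against 0.0296-fold in library 1. The length behind TPM weighs on Pam most among the members, since its merged exons have 11892 bases and its longest coding transcript has 4102. With the length of that transcript, Pam over Cpe was 0.0709-fold. Its locus, chr1:97795114-98095646 on the minus strand, has 15 annotated transcripts.

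Ero1b encodes the oxidase that passes electrons from protein disulfide isomerases to oxygen and is known for its high expression in the pancreas. It was second to Cpe among the processing genes in reads of library 1 and first in library 2, with 3293 CPM in library 2, against 2854 CPM in library 1. Scaled by length it stood at 1348 TPM in library 2 and 1182 TPM in library 1, a mean of 1265 ± 117 TPM (SD, n = 2). The widely expressed relative Ero1a had 37.3 TPM in library 2 and 34.8 TPM in library 1. Ero1b over Ero1a was 36.1-fold in library 2, against 33.9-fold in library 1. Its locus is chr13:12565874-12611396 on the plus strand. Of its words of 50 bases, 9.39% occur in other genes, mostly in the pseudogene Gm18562, which was counted at 16 reads in each library.

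By mean TPM the order of the members was Ins2, Ins1, Cpe, Scg5, Ero1b, Pcsk1, Pcsk1n, Pcsk2, Pam and Furin. Of the 9 pairs of neighbours, only Pcsk1 with Pcsk1n and Pcsk1n with Pcsk2 had overlapping ranges over the libraries. The step from Ins1 down to Cpe was the widest, at 39.8-fold. Scaled by the longest coding transcript, the order kept its first 5 and last 2 places, and Pcsk2 moved ahead of Pcsk1. Scaled by the longest coding sequence, Ero1b also moved ahead of Scg5 and Pcsk1n ahead of Pcsk1. In reads, Ero1b stood at place 4 and Scg5 at place 7. Set against the summed TPM of Pcsk1 and Pcsk2, the summed insulin TPM was 293-fold in library 2, against 248-fold in library 1. In reads without length scaling this was 53.4-fold in library 2, against 44.8-fold in library 1.

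Between the libraries the members differed little, but most of them by more than counting error. Of the 10, 0 were 2-fold or more apart in CPM. The share of genes that far apart was 2.55% over the genes that averaged at least 1 CPM and 0.417% over the 1918 genes that averaged at least 100 CPM. By direction, 1.32% of the genes averaging at least 1 CPM were 2-fold or more higher in library 2 and 1.23% were 2-fold or more lower. At a log2 ratio of 0.32 or more in either direction the count was again 0 of 10, beside 21.7% of the genes that averaged at least 1 CPM and 8.55% of those that averaged at least 100 CPM. With 2 libraries of 1 group there is no replicate check of these ratios and no p-value, and a share of 0 among 10 genes is near the background of abundant genes. On the log2 scale, the ratio of CPM in library 2 to CPM in library 1 had a median of −0.12 among the members and of −0.03 among the genes that averaged at least 1 CPM.

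Ero1b, Ins2, Furin and Scg5 were higher in library 2, and the other 6 were lower. Of the genes that averaged at least 1 CPM, 44.0% were higher in library 2, so this split is near the background. Ero1b had 1.15 times as many CPM in library 2 as in library 1 (95% interval 1.145 to 1.163), the highest ratio of the members. Ins2 had a ratio of 1.07 (1.067 to 1.070). For Scg5 the ratio was 1.02 (1.001 to 1.029). For Furin it was 1.03 (0.987 to 1.08), an interval that includes no difference. Another scaling of the libraries would shift every ratio and interval given here, so those closest to no difference depend on the use of CPM. Among the genes lower in library 2, Pcsk1 had 1367 CPM in library 2, against 1601 CPM in library 1, a ratio of 0.854 (0.844 to 0.863). Pcsk2 had 1708 CPM in library 2, against 1996 CPM in library 1, a ratio of 0.856 (0.847 to 0.864). The convertases of the granule thus had the lowest ratios, and close ones. Cpe had a ratio of 0.882, Pcsk1n 0.912, Pam 0.913 and Ins1 0.928. In CPM the 8 processing genes together had 11506 in library 2 and 12091 in library 1.

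**Figure D3:**
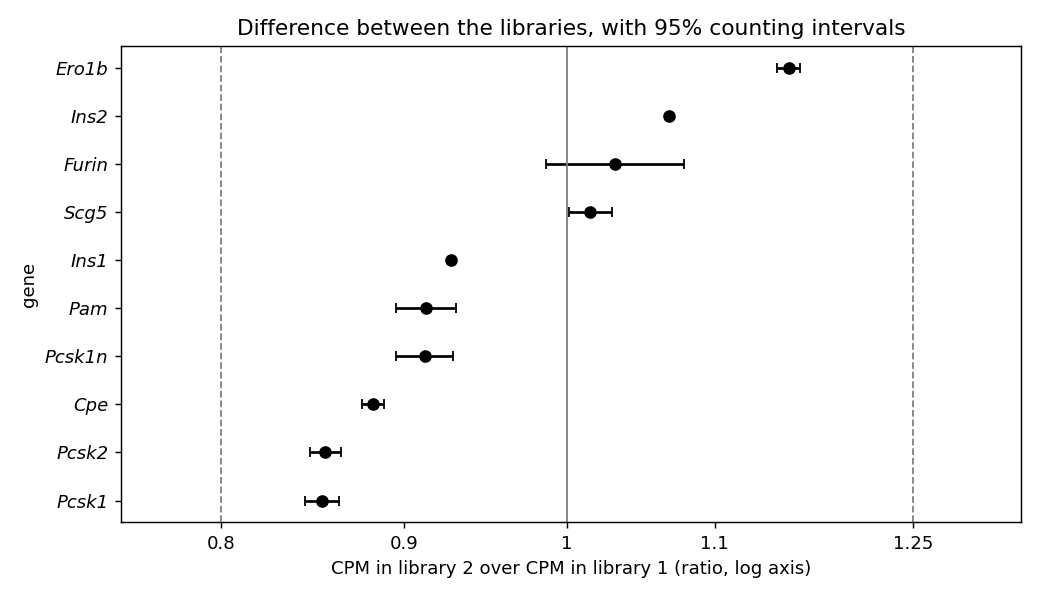
CPM in library 2 over CPM in library 1 for each member (ratio, log axis), with bars for the exact 95% counting interval and dashed lines at a log2 ratio of 0.32 in either direction. All points lie between the dashed lines, from 0.854 for Pcsk1 to 1.15 for Ero1b, and only the bar of Furin crosses 1.

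Markers of other cell types moved between the libraries as well. In a bulk sample, fewer cells of a type and less RNA per cell cannot be told apart. The 7 acinar markers summed to 492 CPM in library 2, against 106 CPM in library 1, and all 7 were 2-fold or more higher in library 2, beside 1.32% of the genes that averaged at least 1 CPM. The 5 alpha cell markers, of which 4 were detected, summed to 371 CPM in library 2, against 513 CPM in library 1. Gcg alone had 330 CPM in library 2, against 462 CPM in library 1, and 1 of the 5, the undetected Irx1, was higher in library 2. The 4 delta cell markers, all detected, summed to 1224 CPM in library 2, against 1653 CPM in library 1. Sst alone had 1100 CPM in library 2, against 1515 CPM in library 1, and 1 of the 4, Ghsr, was higher in library 2. Alpha cells are known to express Pcsk2 and Cpe too. The part of these cells in the differences between the libraries was not tested. The 2 PP cell markers summed to 1211 CPM in library 2, against 975 CPM in library 1, but they moved in opposite directions. Ppy had 879 CPM in library 2, against 632 CPM in library 1, while Pyy had 332 CPM in library 2, against 343 CPM in library 1. The 4 duct markers, 3 of them detected, summed to 992 CPM in library 2, against 682 CPM in library 1, nearly all of it Spp1. Endothelial, mesenchymal and immune markers, of which 3, 3 and 2 of 4 were detected, summed to at most 51.9 CPM per list and library, and no marker was at 0 in both libraries. All 8 beta cell markers were detected, and their median was 645 TPM. They summed to 21835 CPM in library 2, against 20359 CPM in library 1. Of this, Iapp had 13697 CPM in library 2, against 13072 CPM in library 1. Of the 8, 6 were higher in library 2, beside 44.0% of the genes that averaged at least 1 CPM. Slc2a2 and Pdx1 were lower, with ratios of 0.714 and 0.940.

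The pathway around the members was largely expressed. Of 51 genes in 8 related lists, 46 were detected. Of all 55487 genes, 13834 reached 1 CPM in library 2 and 13995 in library 1. The 5 that were not are Pcsk5, Cpz, Cpxm1, Aebp1 and Qpct. Of the 51, 3 were 2-fold or more apart between the libraries, namely Aebp1, Qpct and Cpxm1, all below the detection limit in at least 1 library, beside 2.55% of the genes that averaged at least 1 CPM and 8.71% of those with 10 or more reads summed over the libraries. All 5 genes of the signal peptidase complex, which removes the signal peptide of preproinsulin, were detected, and their median was 200.1 TPM. Spcs3 was highest at 372 ± 5.13 TPM (SD, n = 2) and Sec11a lowest at 48.4 ± 5.38 TPM. The 5 genes for the oxidative folding of proinsulin, all detected, had a median of 70.7 TPM. This list ranged from P4hb, a protein disulfide isomerase, at 1730.4 ± 17.9 TPM to the peroxiredoxin gene Prdx4 at 22.8 ± 4.37 TPM.

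All 9 other prohormone and granin genes were detected. Their median, 4971 TPM, lay above the mean of every processing gene, and they ranged from Iapp down to Vgf at 45.1 ± 11.2 TPM (SD, n = 2). That median is the level of Sst, a delta cell marker. Gcg, Ppy and Pyy in this list are likewise markers of alpha or PP cells, so the median does not describe beta cell prohormones alone. Of the 7 other genes for trimming and modifying peptides, 6 were detected, and the median of the 7 was 29.9 TPM. Ctsb, a cathepsin, was highest at 85.3 ± 0.929 TPM, and the aminopeptidase gene Rnpep the lowest detected at 18.96 ± 0.836 TPM. Qpct, whose product forms N-terminal pyroglutamate, had 1.82 CPM in library 2, against 0.778 CPM in library 1. Slc30a8, the zinc transporter of the insulin granule, had 659 TPM in library 2 and 803 TPM in library 1, and the insulin-degrading enzyme gene Ide had 27.0 TPM in library 2 and 24.97 TPM in library 1. All 10 activators of insulin transcription were detected. Their median was 151 TPM, and they ranged from Mafa at 902 ± 123 TPM down to Tcf3 at 32.7 ± 2.75 TPM. Of these 10, Mafa and Nkx6-1 were higher in library 2 and the other 8 were lower, beside 44.0% of the genes that averaged at least 1 CPM higher in library 2.

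**Figure D4:**
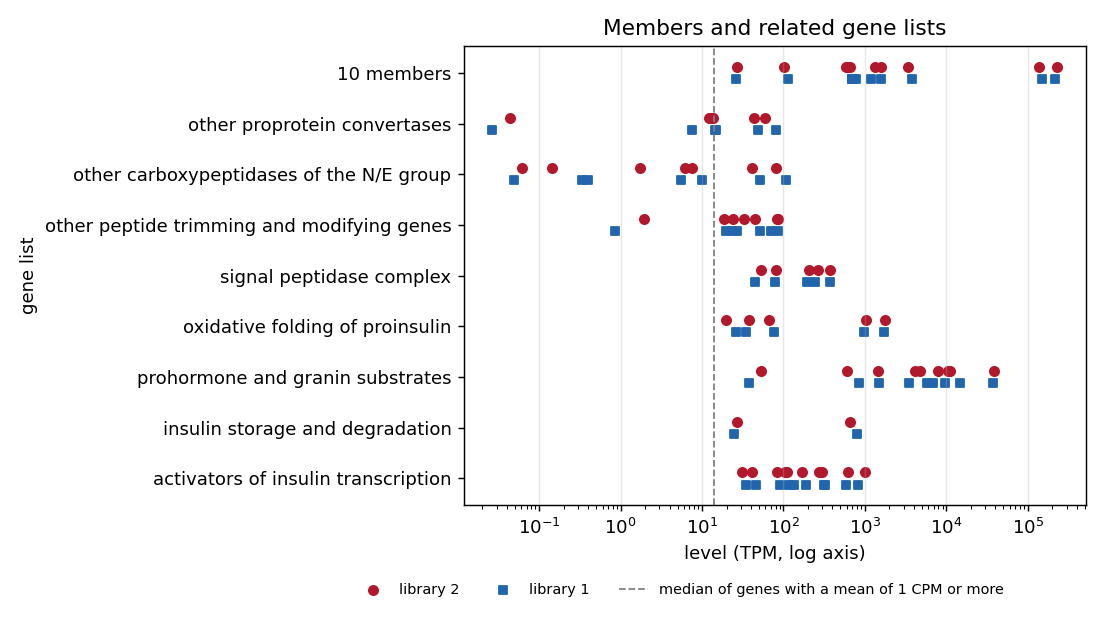
TPM of each gene (log axis) in library 2 (red circles) and library 1 (blue squares), for the 10 members and 8 related lists. The dashed line marks 14.1 TPM, the median over genes that averaged at least 1 CPM, and all 10 members lie to its right.

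The libraries held 39003197 counted reads in library 2 and 50121771 in library 1. A count of 0 allows a level of up to 0.0769 CPM in library 2, against 0.0599 CPM in library 1, by the limit of 3 reads, and every member had at least 3531 reads. The targeted genes were counted in both libraries, with Myt1 at 65.4 CPM in library 2, against 77.6 CPM in library 1, St18 at 56.5 CPM in library 2, against 72.7 CPM in library 1, and Myt1l at 39.0 CPM in library 2, against 44.5 CPM in library 1. Counts over all exons do not separate deleted exons from those that remain, so these levels check neither the labels nor the deletion.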

How the data were processed

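RNA of 2 libraries of sorted mutant beta cells was measured by sequencing. Per the submitters' processing notes, the tools were cutadapt 2.10, STAR 2.7.8a and featureCounts 2.0.2 with the build GRCm38.p6; parameters, strand setting and read length were not given in the sources used here. Raw counts, TPM values and CPM values were used as deposited by the authors. The deposited CPM equals the count over the library total, and the length behind TPM was, for the members and their partners, proportional to the merged exons of GENCODE M21 (GRCm38).

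The members and lists were chosen with earlier results of these data known. Named list genes are the highest and the lowest detected, all undetected ones, and those in a fixed pair; the 10 genes highest in TPM are named as well. An item that this rule names is not reported here. Ratios between libraries have 0.5 read added for calls. Intervals of levels, shares and ratios are exact binomial ones at 95%; those for a change of a ratio use the normal approximation on the log scale. The calculation of ratios was tested on simulated data. Python 3.11.15, scipy 1.17.1, Biopython 1.88 and, for TMM factors, edgeR 4.0.16 were used. Promoters are from RefSeq (GRCm38.p6).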

Additional observations from a re-analysis of the deposited data

How the results depend on the processing

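No paired analysis was possible because both libraries belong to 1 group. The length used for scaling had the most effect on the pair ratios (mean log2 over the libraries; values in parentheses are those with the deposited TPM). With reads and no length scaling, Ins2 over Ins1 was 0.96 (0.65), Pcsk1n over Pcsk1 −1.51 (−0.15), Pcsk1 over Furin 4.05 (4.76), Pcsk2 over Furin 4.37 (4.59), Furin over Pcsk7 1.74 (0.92), Cpe over Cpd 3.59 (5.26), Pam over Cpe −2.86 (−5.05) and Ero1b over Ero1a 5.46 (5.13); Pcsk1 over Pcsk2 turned to −0.32 (0.18) and Scg5 over Pcsk2 to −1.04 (1.29). With the longest coding transcript, the same ratios in this order were 1.17, −0.31, 3.83, 4.25, 1.58, 5.50, −3.82 and 5.52, Scg5 over Pcsk2 was 0.92, and Pcsk1 over Pcsk2 turned to −0.41. With the longest coding sequence, a choice made after the data were seen, Ins2 over Ins1 was 0.93, Scg5 over Pcsk2 0.54, Pcsk1 over Furin 4.13, Furin over Pcsk7 1.70, Pam over Cpe −3.90 and Ero1b over Ero1a 5.37, Pcsk1 over Pcsk2 turned to −0.56 and Pcsk1n over Pcsk1 to 0.040. The lengths alone make these shifts, since the reads are the same. A pseudocount of 1 TPM changed the direction of none of the 10 ratios.

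Over protein-coding reads alone the insulin genes took 16.7%. The share of genes 2-fold apart was 8.71% over genes with 10 or more reads summed, 33.9% over genes with 1 or more and 0.417% over those with a mean of 100 CPM or more; at a log2 ratio of 0.32 or more it was 21.7%. Scaling by TMM, by the median of ratios, by the total without Ins1 and Ins2 or by the summed members (chosen after the data were seen) left 4 members higher in library 2 and 0 members 2-fold apart. Detection at 5 CPM left 46 list genes, and library 2 alone gave 48. Either library alone gave ratios of the same direction for all 10 pairs. Depth limits the precision of genes with few reads: Pcsk5 had 9 reads in library 2 and 7 in library 1.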
